A study of Mus musculus with 10 samples.

Results

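The genes described here encode the main structural proteins of the intestinal tight junction, namely the claudins Cldn2, Cldn3, Cldn4, Cldn7, Cldn15 and Cldn23, the membrane protein occludin (Ocln) and the scaffolds ZO-1 (Tjp1) and ZO-3 (Tjp3). They were taken by gene symbol from the array annotation, and all 9 were found among the 22180 named genes, each with 1 probe set. The study hybridised amplified RNA of flow-sorted mouse intestinal cells to 10 Affymetrix MoGene 2.0 ST arrays. It asked how crypt cells expressing Flattop, which has been tied to planar cell polarity, differ from stem cells with high Lgr5.

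The Flattop group had 4 arrays of crypt cells from FltpT2AiCre mice crossed with the reporter Gt(ROSA)26mTmG, on a mixed C57BL/6J, CD1 and 129/SvJ background. The Lgr5-high group had 6 arrays of stem cells with high Lgr5 and GFP from C57BL/6J mice carrying Lgr5-EGFP-IRES-creERT2. All mice were 3 to 6 months old. Cre recombination of the mTmG reporter is permanent, so its colour also marks descendants of a cell that once expressed the Cre, and which colour was sorted is not given in the sources used here. Each group had its own genotype and strain, whose effects cannot be told apart from the group's. The labels do not state whether each replicate was a different animal, so the p-values reflect the spread of these samples alone, and part of it may be technical.

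Tight junctions seal the space between neighbouring epithelial cells near their apical border. Claudins span the membrane and set which ions pass between cells, some by forming pores and others by tightening the seal, while ZO proteins bind claudin tails and occludin and tie them to the actin cytoskeleton. In the small intestine of the mouse, claudin-2 is known from the crypts, and claudin-15 is the other main cation pore.

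Values are log2 intensities, on which a difference of 1 is a 2-fold change. The fit was limma over all 22180 genes, Flattop minus Lgr5-high, with Benjamini-Hochberg adjustment and a threshold of 0.05. By this rule 0.915% of all genes were called (203 genes, of which 200 were higher in Flattop, or 0.902%, and 3 lower, or 0.0135%). The epithelial genes Krt8, Krt18, Krt19, Cdh1, Vil1 and Epcam were high in both groups. The mean over these 6 genes lay between 10.0002 and 10.68 in Flattop and between 9.94 and 10.37 in Lgr5-high arrays, and 0 of the 6 passed. T cell and intraepithelial lymphocyte genes were high in Flattop arrays as well, with list means of 8.66 to 11.16, so those arrays did not hold epithelial RNA alone. Neither label gene passed. Lgr5 averaged 8.37 ± 1.42 (SD, n = 4) in Flattop arrays, against 9.47 ± 0.33 (SD, n = 6) in Lgr5-high arrays (limma adjusted p = 0.533), and Cfap126, which encodes Flattop, averaged 5.42 ± 0.74 and 4.996 ± 0.349 in the same groups (adjusted p = 0.678). The differences of the label genes were unlike in the 2 ranges of sample numbers in the titles, but neither interaction passed after adjustment. Each range held 2 Flattop and 3 Lgr5-high arrays. For Cfap126 the difference was -0.44 among titles 1 to 8, where both Flattop arrays lay below all 3 Lgr5-high arrays, against their label, and 1.29 among titles 38 to 46, where both lay above them (limma interaction adjusted p = 0.244). For Lgr5 it was -0.16 in the lower range and -2.04 in the upper one (limma interaction adjusted p = 0.597).

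Of the 9 tight junction genes, 0 passed the adjusted threshold in either direction. At an unadjusted p under 0.05, 2 were higher in Flattop, Cldn15 and Cldn23, and 0 were lower, where 9.78% of all genes lay under that p in either direction and 5.98% were higher. No gene of the 9 separated the groups without overlap, as 2.98% of all genes did. Differences were positive for 6 and negative for 3 genes, with a median of 0.13, against a median of -0.06 over all genes. For Cldn3, Cldn4, Cldn7, Ocln and Tjp3 the 95% confidence interval of the difference lay within 1 on the log2 scale in both directions, so a 2-fold change lay outside it. For Cldn2, Cldn15, Cldn23 and Tjp1 it did not. These intervals are not adjusted for the number of genes, and they concern intensities. Cldn4 was measured at a low level, with means of 5.36 in Flattop and 5.38 in Lgr5-high arrays. Part of its signal may be background, and its interval may then understate a change in its RNA. The Cldn3 interval pools differences of 0.78 among titles 1 to 8 and -0.33 among titles 38 to 46.

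**Figure D1:**
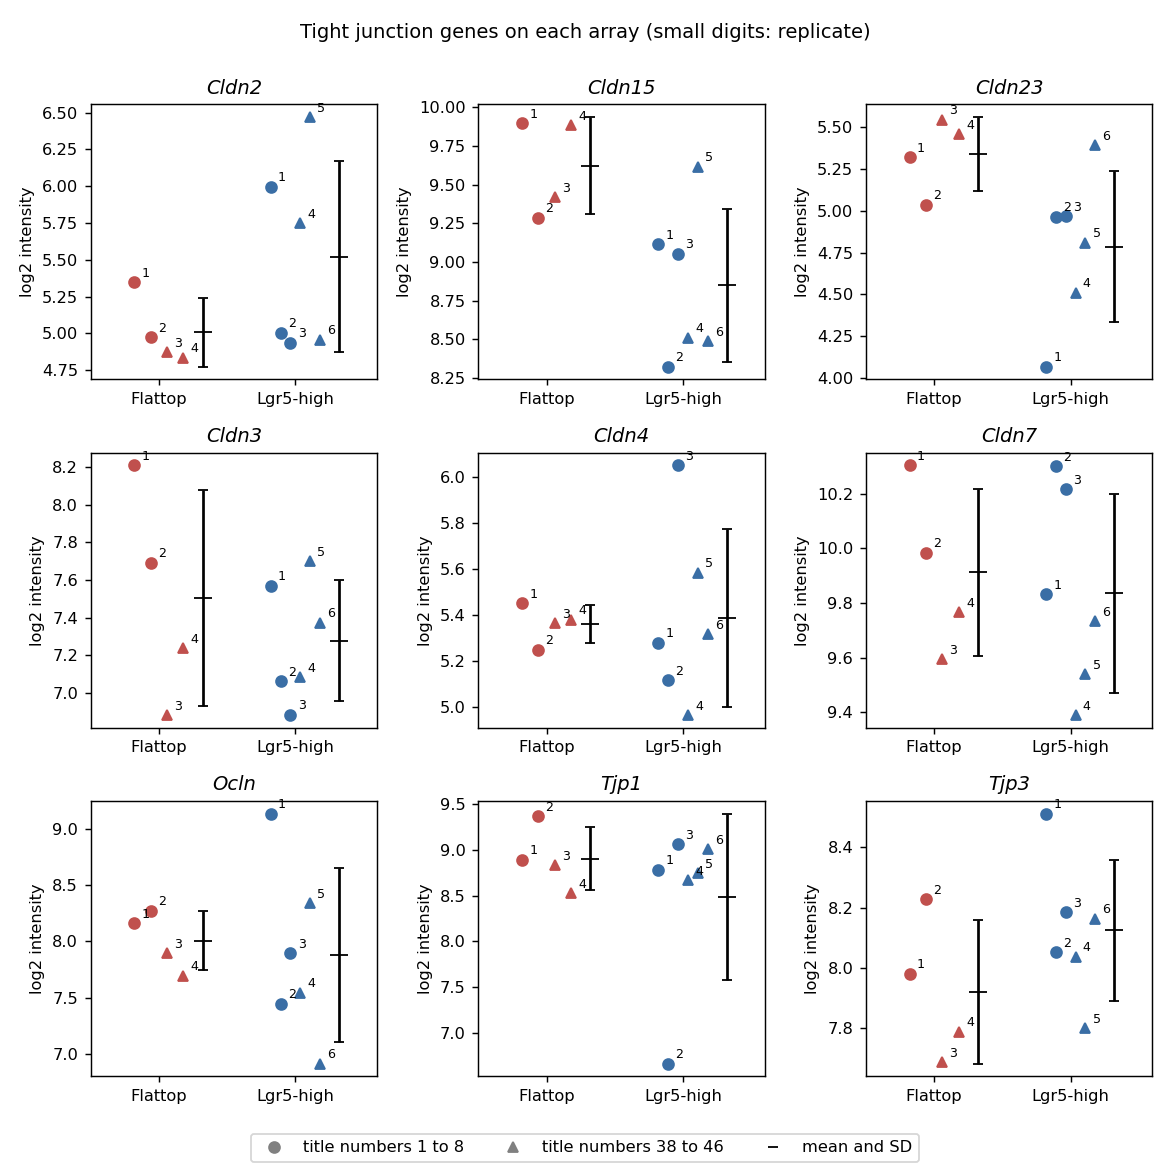
Log2 intensity (vertical axis) of each gene on each array, Flattop left and Lgr5-high right. Points are arrays, shaped by title number range (1 to 8 or 38 to 46) and labelled with the replicate, and black bars give the mean and SD. The groups overlap in every panel, and Tjp1 in Lgr5-high replicate 2 lies at 6.66, far below the other arrays.

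Cldn15 had the largest positive difference of the 9. Claudin-15 forms a paracellular pore for sodium, which in mice sustains sodium-coupled nutrient uptake in the small intestine. Its levels were 9.90, 9.29, 9.42 and 9.89 in Flattop replicates 1 to 4, against 8.32 to 9.62 with a median of 8.78 in Lgr5-high arrays. Of the 6 Lgr5-high arrays, 5 lay below all Flattop arrays. The exception was Lgr5-high replicate 5 at 9.62, above Flattop replicates 2 and 3. The Flattop mean was 9.62 ± 0.32 (SD, n = 4) and the Lgr5-high mean 8.85 ± 0.49 (SD, n = 6), and the difference was 0.77 (SE 0.26, 95% interval 0.20 to 1.35), or 1.71-fold. Its limma p was 0.0130 and its adjusted p was 0.324. Without Lgr5-high replicate 2, the lowest array, the difference was 0.67. Without Lgr5-high replicate 5 the difference was 0.93 and the limma adjusted p 0.141, the lowest adjusted p that any of the alternatives gave for any of the 9 genes.

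Cldn23 was the other gene with an unadjusted p under 0.05. Claudin-23 is known from the luminal, differentiated cells of the intestinal epithelium, where it takes part in the barrier. Flattop replicates 1 to 4 read 5.32, 5.04, 5.54 and 5.46, against 4.07 to 5.39 with a median of 4.89 in Lgr5-high arrays. Again 5 of the 6 Lgr5-high arrays lay below all Flattop arrays, and here replicate 6 was the exception at 5.39. The difference was 0.55 (SE 0.23, 95% interval 0.04 to 1.07). Its limma p was 0.0370 before adjustment and 0.475 after it. Without Lgr5-high replicate 1, the lowest array, the difference was 0.41. Cldn23 lay close to the array medians, which were 4.56 to 4.77. Since no detection calls were at hand, part of this signal may be background, and a fold change would then be understated.

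Cldn2 had the largest negative difference. Claudin-2 forms a pore for small cations and water. Its Flattop levels were 5.35, 4.97, 4.87 and 4.83, against 4.94 to 6.47 with a median of 5.38 in Lgr5-high arrays. The Lgr5-high arrays separated into 3 above every Flattop array (replicates 1, 4 and 5 at 6.00, 5.75 and 6.47) and 3 inside the Flattop range (replicates 2, 3 and 6 at 5.005, 4.94 and 4.96). Each set held arrays from both ranges of title numbers. The Flattop mean was 5.01 ± 0.23 (SD, n = 4) and the Lgr5-high mean 5.52 ± 0.65 (SD, n = 6). The difference of -0.51 (SE 0.31, 95% interval -1.20 to 0.17) did not pass in limma (adjusted p = 0.631), and it was -0.32 without Lgr5-high replicate 5. Cldn2 too lay close to the array medians on the lower arrays.

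**Figure D2:**
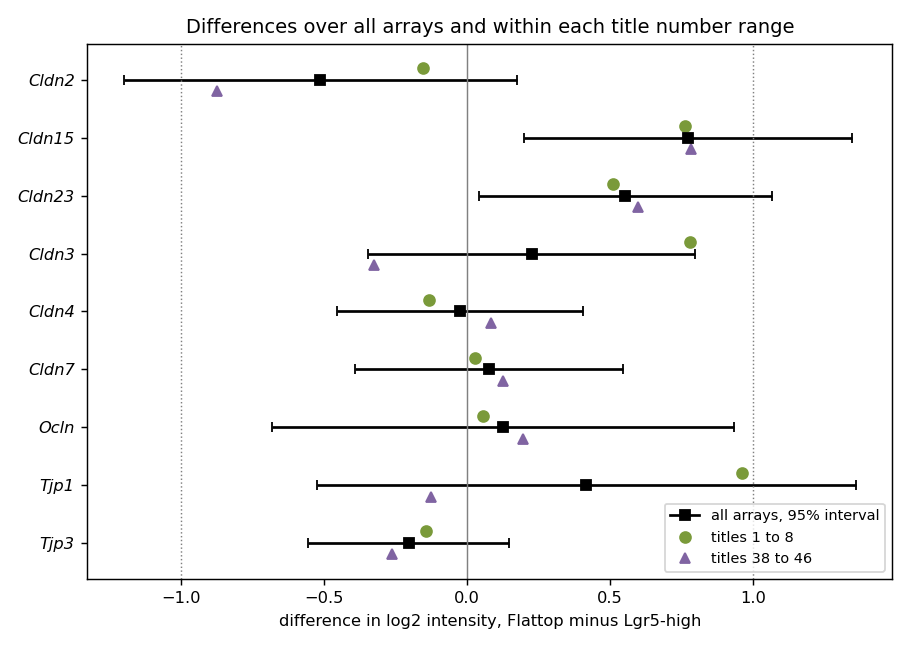
Difference in log2 intensity between Flattop and Lgr5-high (horizontal axis) for each gene. Squares with bars are the difference over all arrays with its 95% interval, circles and triangles are the differences within title numbers 1 to 8 and 38 to 46, the solid line marks no difference and dotted lines mark 2-fold changes. Only the intervals of Cldn15 and Cldn23 exclude 0, before any adjustment for the number of genes.

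The remaining 3 claudins had small differences. Claudin-3 is a broadly expressed sealing claudin. Cldn3 read 8.21, 7.69, 6.88 and 7.24 in Flattop replicates 1 to 4, against 6.88 to 7.70 with a median of 7.23 in Lgr5-high arrays. The Flattop arrays included both the highest and the lowest of all 10 values. The mean difference was 0.23 (SE 0.26, limma adjusted p = 0.787), with a 95% interval of -0.34 to 0.80.

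Claudin-4, a sealing claudin whose gene is a close neighbour of Cldn3 on chromosome 5, was measured at a low level. Cldn4 read 5.45, 5.25, 5.37 and 5.38 in Flattop arrays, against 4.96 to 6.05 with a median of 5.30 in Lgr5-high arrays. All Flattop values lay inside the Lgr5-high range, and the difference was -0.02 (95% interval -0.46 to 0.41). The SD was 0.083 in Flattop and 0.387 in Lgr5-high arrays. The highest array was Lgr5-high replicate 3, without which the difference was 0.11.

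Claudin-7 also lies along the basolateral membrane, where it binds EpCAM, and mice without it lose intestinal integrity. Cldn7 read 10.30, 9.98, 9.59 and 9.77 in Flattop arrays, against 9.39 to 10.30 with a median of 9.78 in Lgr5-high arrays. Both groups spanned nearly the same range, and the difference was 0.08 (SE 0.21, 95% interval -0.39 to 0.54). Epcam, its partner, was as close, with means of 10.84 in Flattop and 10.83 in Lgr5-high arrays.

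Occludin, a membrane protein that stabilises the junction but is not needed to form it, varied more among Lgr5-high than among Flattop arrays. Ocln read 8.16, 8.27, 7.90 and 7.70 in Flattop arrays, against 6.91 to 9.14 with a median of 7.72 in Lgr5-high arrays. All 4 Flattop arrays lay inside the Lgr5-high range, whose ends were replicate 6 and replicate 1. The difference was 0.13 (SE 0.37, 95% interval -0.68 to 0.94, limma adjusted p = 0.922).

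ZO-1 is the scaffold on which claudin strands are assembled. Tjp1 read 8.89, 9.37, 8.84 and 8.53 in Flattop arrays, against 6.66 to 9.06 with a median of 8.76 in Lgr5-high arrays. Lgr5-high replicate 2 alone was low, at 6.66, and the other 5 Lgr5-high arrays lay between 8.67 and 9.06. The difference of 0.42 (SE 0.43, limma adjusted p = 0.766) rested on that array: without it the difference was 0.05. Lgr5-high replicate 2 was also the array least correlated with its own group over all probe sets (mean r = 0.863, where the other Lgr5-high arrays had 0.874 to 0.898), and it had the lowest Cldn15 of all arrays.

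ZO-3, a related scaffold found mainly in epithelia, had the narrowest range of the 9 genes over the 10 arrays. Tjp3 read 7.98, 8.23, 7.69 and 7.79 in Flattop arrays, against 7.80 to 8.51 with a median of 8.11 in Lgr5-high arrays. Flattop replicates 3 and 4 were the lowest arrays. The difference was -0.20 (SE 0.16, 95% interval -0.56 to 0.15, limma adjusted p = 0.700).

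**Figure D3:**
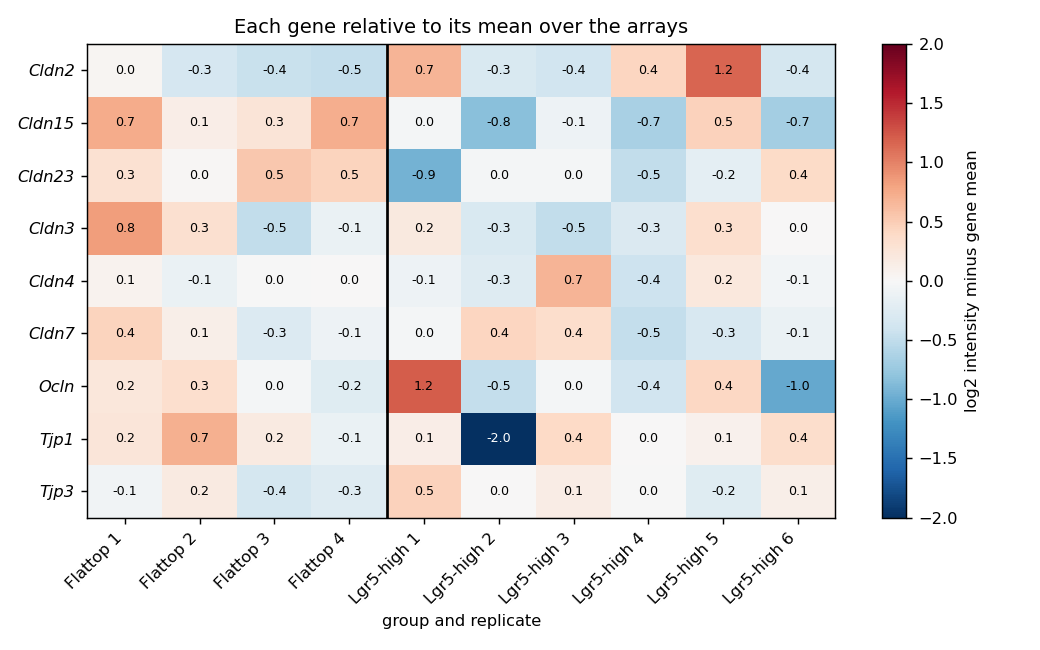
Log2 intensity of each gene minus its mean over the 10 arrays, with Flattop arrays left of the vertical line and Lgr5-high arrays right of it. Red is above and blue below the gene's mean. No column is red or blue throughout. Cldn15 and Cldn23 are at or above their means in all 4 Flattop arrays, and Tjp1 is far below its mean in Lgr5-high replicate 2.

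The 9 genes did not all move together across arrays, though some arrays were high or low for most of them. The mean over the 9 genes ran from 6.99 in Lgr5-high replicate 2 to 7.73 in Flattop replicate 1. Flattop replicate 1 and Lgr5-high replicates 3 and 5 lay above their own group's mean for 7 genes. Flattop replicate 3 and Lgr5-high replicates 2 and 4 did so for 2. The highest arrays were spread over 6 of the 10, with Flattop replicate 1 highest for Cldn3, Cldn7 and Cldn15, and Lgr5-high replicate 1 highest for Ocln and Tjp3 but lowest for Cldn23. Lgr5-high replicate 5 was highest for Cldn2. Its Cldn15 and Cldn3 were the highest of the Lgr5-high arrays. The SD was larger in Lgr5-high than in Flattop for 7 of the 9 genes, the exceptions being Cldn3 and Tjp3, and it was larger in Lgr5-high for 53.2% of all genes. The median SD of the 9 genes was 0.26 in Flattop and 0.45 in Lgr5-high arrays, where all genes had medians of 0.28 and 0.29.

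Likeness of pattern was measured as the root mean square distance between profiles over the 10 arrays, each centred on the gene's own mean. It was taken for the 3 genes of widest range, Tjp1, Ocln and Cldn2, among 11788 candidate genes. Closest to Tjp1 were Mettl4 (0.212), Zfp668 (0.253) and Ppp2r5a (0.254), where the median candidate was at 0.806. All 3 had their lowest value in Lgr5-high replicate 2, as Tjp1 did. Closest to Ocln were Dhdds (0.215), Zfp90 (0.231) and Cyb561a3 (0.242), and closest to Cldn2 were Pxmp2 (0.282), Dennd1a (0.286) and Ivns1abp (0.290). No other gene of the 9 was among these. By this distance the closest pair within the 9 was Cldn7 and Tjp3 (0.325), and the farthest apart was Cldn2 and Cldn23 (0.902). The distance was not scaled to each gene's spread, so genes that vary little lie close together. Cldn7 and Tjp3 had narrow ranges over the 10 arrays (0.914 and 0.825), so their small distance does not by itself show a shared pattern.

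The numbers in the sample titles fall into 2 ranges, 1 to 8 and 38 to 46, each with 2 Flattop and 3 Lgr5-high arrays, and the labels do not say whether they mark batches. Cldn15 and Cldn23 had nearly equal differences in both ranges. Within titles 1 to 8 they were 0.76 and 0.51, and within titles 38 to 46 they were 0.78 and 0.60. Both Flattop arrays of titles 1 to 8 lay above all 3 Lgr5-high arrays of that range for each of these genes, and in titles 38 to 46 they did for Cldn23. How many of all genes were separated within a range of so few arrays was not counted. None of the 9 genes passed within either range alone by limma's adjusted p. An unadjusted limma p under 0.05 was reached by 1 gene, Cldn3, within titles 1 to 8, and by 1937 of all 22180 genes. Within titles 38 to 46 it was reached by 0 of the 9 and by 1880 of all genes.

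Cldn3, Cldn4 and Tjp1 differed in sign between the ranges, and the other 6 genes kept theirs, as did 11862 of all 22180 genes. Cldn4 was close to 0 in both, at -0.13 in the lower range and 0.084 in the upper one. Cldn3 was at 0.78 within titles 1 to 8, where both Flattop arrays lay above all 3 Lgr5-high arrays, and at -0.33 within titles 38 to 46. The difference between these differences was -1.11 (SE 0.40), with a limma interaction p of 0.0225 and an adjusted p of 0.609. Of the 9 genes, 1 lay under an unadjusted interaction p of 0.05, as did 7.39% of all genes, and 0 passed after adjustment, as 0.00902% of all genes did. Tjp1 was at 0.96 within titles 1 to 8, the range that holds Lgr5-high replicate 2, and at -0.13 within titles 38 to 46 (interaction adjusted p = 0.768). Cldn2 was at -0.15 and -0.87 in the same order of ranges (interaction adjusted p = 0.785). In that order Cldn7 was at 0.028 and 0.13, Ocln at 0.058 and 0.20, and Tjp3 at -0.145 and -0.26.

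**Figure D4:**
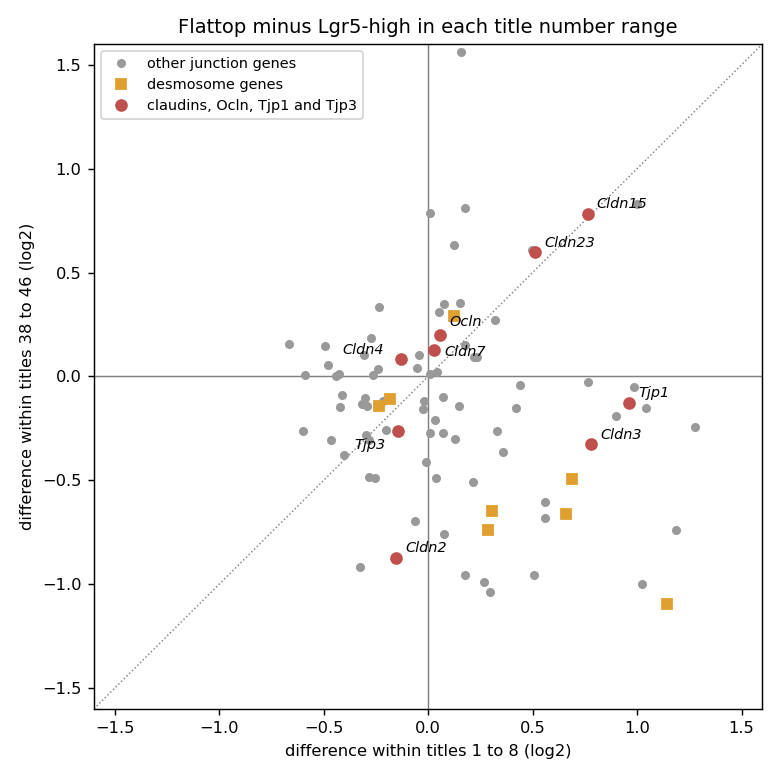
Difference between Flattop and Lgr5-high in log2 intensity within title numbers 1 to 8 (horizontal axis) and 38 to 46 (vertical axis), with 2 Flattop and 3 Lgr5-high arrays in each. Red circles are the 9 tight junction genes, squares the desmosome genes and grey circles the other junction genes. The dotted line marks equal differences. Cldn15 and Cldn23 lie near it, and Cldn3, Tjp1 and, close to 0, Cldn4 lie where the sign turns.

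Genes beside these in the junction were read from the same fit, in 6 lists with 81 measured genes. None passed by limma's adjusted p. At an unadjusted p under 0.05, 3 were higher and 3 lower (9.78% of all genes in either direction). The median difference over the 81 genes was -0.09, close to the -0.06 over all genes.

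Of the 17 other claudins, 16 had negative differences, with a median of -0.21, where 61.5% of all genes had negative differences. An unadjusted limma p under 0.05, which 9.78% of all genes had, was reached by 0 of these claudins. Most of them were dim: Cldn17 averaged 3.60 ± 0.08 (SD, n = 4) in Flattop arrays, against 3.90 ± 0.26 (SD, n = 6) in Lgr5-high arrays, and Cldn18, known from the stomach, averaged 4.602 ± 0.389 and 4.895 ± 0.109 in the same groups. Their differences of -0.29 each had limma adjusted p of 0.576 and 0.616, and that of Cldn18 was -0.14 without Flattop replicate 2. With arrays centred on their medians both differences were -0.23. 

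Among 12 other membrane proteins of the junction, the adhesion molecule JAM-A (F11r) was at 0.30 (limma adjusted p = 0.651) and the occludin relative Marveld3 at -0.43 (adjusted p = 0.651). F11r was at 0.15 without Flattop replicate 1, and Marveld3 at -0.28 without Flattop replicate 4. Jam3 was at -0.39 with an unadjusted p of 0.0398, and it was dim, at 3.32 in Flattop and 3.71 in Lgr5-high arrays. The list median was -0.08.

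Among 17 scaffold and polarity genes, Arhgef2 had the smallest p of all 81. It encodes GEF-H1, a RhoA activator that is held inactive at tight junctions. It averaged 5.66 ± 0.18 (SD, n = 4) in Flattop arrays, against 5.11 ± 0.23 (SD, n = 6) in Lgr5-high arrays, without overlap of the groups. It was the 1 gene of the 81 without overlap, which 2.98% of all genes showed. Its difference of 0.55 (SE 0.15) did not pass (limma adjusted p = 0.180), and it was 0.50 in the lower and 0.61 in the upper title number range. Ybx3, a transcription factor that binds ZO-1, was at -0.38 (adjusted p = 0.531). Its difference was -0.063 in the lower and -0.69 in the upper title number range, and -0.20 without Flattop replicate 3.

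Among 14 genes known to regulate claudins or the barrier, 2 higher and 2 lower in Flattop had an unadjusted limma p under 0.05. Of all genes, 9.78% had such a p in either direction. The TNF receptor Tnfrsf1b was at 0.86 (limma adjusted p = 0.311), with 0.16 in the lower and 1.56 in the upper title number range, and 0.56 without Flattop replicate 3. The interleukin-22 receptor subunit Il22ra1, through which that cytokine induces claudin-2, was at 0.91 (adjusted p = 0.406). The nuclear receptors Hnf4a and Vdr were at -0.37 and -0.39 (adjusted p of 0.481 and 0.507).

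None of 13 adherens junction and 8 desmosome genes lay under an unadjusted limma p of 0.05, where 9.78% of all genes did. Alpha-catenin (Ctnna1) was at 0.49 (adjusted p = 0.534) and LI-cadherin (Cdh17) at 0.37 (adjusted p = 0.627). Plakophilin-3 (Pkp3), of the desmosome, was at 0.21 (adjusted p = 0.663). The list medians were -0.004 for the adherens junction and -0.07 for the desmosome.

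**Figure D5:**
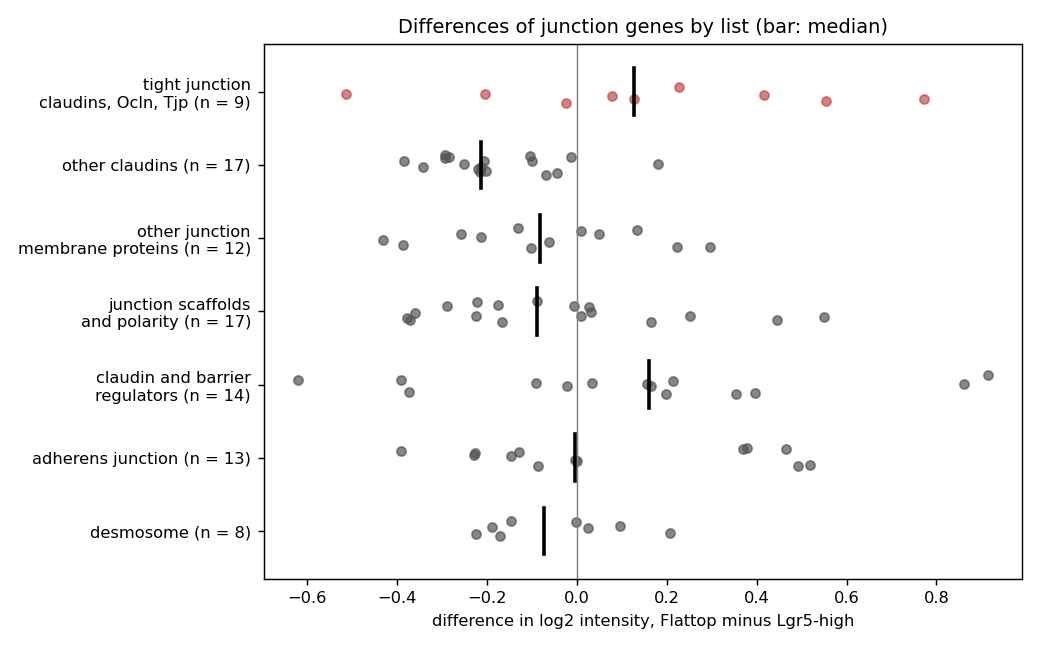
Difference in log2 intensity between Flattop and Lgr5-high (horizontal axis) for the 9 tight junction genes and the 6 lists of other junction genes. Each point is a gene and each bar the median of its list. No gene shown passed the adjusted threshold. The other claudins lie mostly left of 0, with a median of -0.21.

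Markers of other cells moved with the groups. All 11 T cell and intraepithelial lymphocyte genes were higher in Flattop, with means per array of 8.66 to 11.16 in Flattop and 4.55 to 5.03 in Lgr5-high arrays. All 11 enterocyte genes had positive differences, and 6 of them passed the threshold. The list mean was 9.60 to 10.81 in Flattop and 6.88 to 7.87 in Lgr5-high arrays. All 7 goblet and all 6 Paneth genes had positive differences, as had 6 of 7 enteroendocrine genes. The median differences of these 3 lists were 1.51, 3.37 and 1.48. The Lgr5 stem cell list had 0 of 8 genes past the threshold, all 8 with negative differences, and list means of 7.87 to 9.18 in Flattop and 9.18 to 9.57 in Lgr5-high arrays. Among markers of gut region, the ileal Fabp6 rose by 7.10, while the ileal Slc10a2 was at 0.20. Of 4 duodenum and jejunum genes 0 passed, with Lct, also in the enterocyte list, at 2.46 (limma adjusted p = 0.121), Slc40a1 at 0.53, Cybrd1 at 0.44 and Gata4 at -0.09. The colon genes Car1 and Hoxb13 were at -0.05 and -0.06. Endothelial, fibroblast and myeloid lists had 0 genes past the threshold. The part of cell composition and of gut region in the levels of the 9 genes was not tested. In sorted bulk samples a change in the share of cells and a change in RNA per cell cannot be told apart.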

How the data were processed

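The deposited table holds log2 intensities per probe set of 10 arrays. RMA and the R package oligo 1.38.0 are named for it in the submitters' processing notes, and the sources used here give neither the order of steps nor any later filter. That the scale is log2 follows from RMA and from values of 2.01 to 14.1. Scanner files and detection calls were not used here, and precision is limited by the number of arrays.

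Of 41345 probe sets, 23521 carried 1 gene symbol in the platform annotation, 1814 carried several and 16010 were not listed there and stay unnamed. Entrez numbers of 23328 of them were found among RefSeq genes (GRCm38.p6), and 0 symbols had to be updated. For each of 22180 genes the probe set with the highest mean was kept, without a filter on dim ones.

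Groups were compared with limma 3.58.1 (lmFit, eBayes) in R 4.3.3, two-sided, over all genes, and the interaction between group and range of title numbers was fitted likewise. The method was tested on simulated data. Named genes were the 9 tight junction genes, Lgr5 and Cfap126, up to 4 genes of smallest p in each junction list, the 3 genes most like each of the 3 tight junction genes of widest range, and markers as needed. Candidates for likeness had a mean above 4.70, the median of all values, and were not predicted genes. Some listed genes are not reported here. Further marker lists gave 5 of 7 goblet, 4 of 6 Paneth, 5 of 7 enteroendocrine, 0 of 4 tuft cell and 0 of 10 dissociation genes past the threshold. Every goblet, Paneth and enteroendocrine gene that passed was higher in Flattop.

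The genes and lists were chosen with earlier results of these data known. Alternatives changed the normalisation, the centring, the filter on dim genes (under the 40th percentile), the variance prior, array weights, the choice of probe set, blocks for replicate number or title range, the threshold (0.1) and the arrays included. Plots were drawn with matplotlib 3.10.9.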

Additional observations from a re-analysis of the deposited data

Results flagged for a closer look

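Tjp1 in Lgr5-high replicate 2 read 6.66, where the other 5 Lgr5-high arrays lay between 8.67 and 9.06. Its gap to the nearest array was 0.837 of the group's range, above Dixon's critical value of 0.625 for 6 samples. F11r in Lgr5-high replicate 5 read 7.995, where the other Lgr5-high arrays lay between 8.59 and 8.81 (gap 0.733 of the range). In all, 70 groups of values were examined by this test, which by chance marks about 1 in 20. The causes were not tested.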

How the results depend on the processing

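In each of the 24 alternatives 0 of the 9 tight junction genes and 0 of the other junction genes passed, and in each of the 17 alternatives of the interaction 0 of the 9 did. Cldn2, Cldn15, Cldn23 and Tjp3 kept their sign in all 24, with Cldn15 between 0.67 and 0.93. A second quantile normalisation put Cldn7 at -0.027 and Ocln at -0.0025, and centring on array medians put Cldn4 at 0.036. Within titles 38 to 46, Cldn3 was at -0.33, Cldn4 at 0.084, Tjp1 at -0.13, Cldn18 at 0.0057, Clmp at 0.15, Cdh17 at -0.029 and Nectin1 at -0.24. Within titles 1 to 8, Pard3 was at 0.27, Ctnnd1 at 0.18 and Dsg2 at 0.29. With each group's least correlated array removed, Dsg2 was at 0.017 and Ppl at 0.061. With each array left out in turn, Cldn3 lay between -0.0082 and 0.44, Cldn4 between -0.11 and 0.11, Cldn7 between -0.053 and 0.18, Ocln between -0.066 and 0.38, Tjp1 between 0.052 and 0.54, Dsg2 between -0.40 and 0.025 and Ppl between -0.27 and 0.0059. The cause of these turns of sign was not tested.

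Of all genes, 77 passed within titles 1 to 8 and 85 within titles 38 to 46, each on 5 arrays, and 311 at a threshold of 0.1. With an array left out the count was 123 (Flattop replicate 2) to 215 (Flattop replicate 3), and 132 without Lgr5-high replicate 4.

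Replicate numbers 1 to 4 occur in both groups, but deviations of same-numbered arrays correlated at 0.183, -0.129, 0.004 and 0.011, so the numbers were not taken to pair samples. On these 8 arrays the replicate block gave 57 genes, against 98 without it (chosen after seeing the data), and in both fits Cldn4 was at 0.0088 and Cldn7 at -0.023. No tight junction gene passed in either.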

Other observations

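Of the 81 junction genes outside the 9, 38 had the same sign in both title number ranges, as had 11862 of all 22180 genes. Of the 81 other junction genes, 18 lay under an unadjusted interaction p of 0.05, or 22.2%, where 7.39% of all genes did, and 0 passed after adjustment (lowest limma adjusted p = 0.212). Of the 18, 13 had the lower difference within titles 38 to 46, as had 836 of the 1639 among all genes under that p. Scaffold and polarity genes made up 6 of them, 5 with the lower difference there, desmosome genes 4, all 4 lower there, and adherens junction genes 3, all 3 lower there. The next genes were chosen after their values were seen. Prkci, an atypical protein kinase C of the polarity complex, had the lowest interaction p of the 81, with a difference of 1.02 in the lower title range and of -1.001 in the upper one. Perp, a desmosomal membrane protein, had a difference of 1.15 in the lower title range and of -1.10 in the upper one (limma interaction adjusted p = 0.491). The mean of the 8 desmosome genes was 7.50 and 7.36 in Flattop replicates 1 and 2 and 6.67 and 6.73 in Flattop replicates 3 and 4, and it lay between 6.86 and 7.29 in Lgr5-high arrays. In the same 4 Flattop arrays the T cell list mean was 8.66, 9.21, 11.16 and 10.33. Its part in the desmosome levels was not tested.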
